A study of Homo sapiens with 36 samples.

Results

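The 47 messages described here encode proteins of the G2 phase and mitosis, the stages in which a cell checks its copied genome, condenses its chromosomes, builds a spindle and divides. They were taken as a fixed list of gene symbols and joined by gene identifier to the deposited counts, where all 47 of the 60675 counted genes were found. All 47 also passed the filter on low counts, as did 31849 genes in all, so every member was tested. The question put to them was how strongly each message came down with YTHDF1, YTHDF2 or YTHDF3, relative to the lysate and to the other YTHDF proteins. A further question was how far each message was edited in cells with the ADAR fusions.

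Cells in G2 switch on a shared group of genes, whose promoters often hold a CHR element (TTTGAA), bound by the DREAM and B-MYB-MuvB complexes, and CCAAT boxes, bound by NF-Y. Cyclin B and CDK1 then drive entry into mitosis, the Aurora, BUB1 and TTK kinases watch over the attachment of chromosomes to the spindle, and the anaphase-promoting complex ends the stage by marking cyclin B for destruction. YTHDF1, YTHDF2 and YTHDF3 are cytoplasmic readers of N6-methyladenosine (m6A), a mark on adenosines of mRNA that is most frequent near stop codons and in long internal exons. YTHDF2 is best known for bringing the CCR4-NOT deadenylase to its targets. An ADAR fused to a reader turns adenosines of the bound mRNA into inosines, which are read as edited sites (TRIBE).

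The cells were HEK293T, a human embryonic kidney line, induced for 24 h with doxycycline at 1 ug/mL to express YTHDF1-ADAR, YTHDF2-ADAR or YTHDF3-ADAR. From each of the 3 lines, RNA was sequenced after RNA immunoprecipitation (RIP) with an antibody against endogenous YTHDF1, YTHDF2 or YTHDF3, and from a fraction of the lysate (input). This gave 12 groups of 3 libraries, 36 in all. By the labels every group carried an induced fusion, so no library came from cells without one, and they do not say whether a line is a clone or whether replicates were separate cultures.

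Promoters of the cyclin B and CKS pairs are shown first. These 4 messages belong to the cyclin-CDK1 group, which had the lowest median of the role groups in most RIPs. A link between promoter letters and RIP values was not tested. The 120 bases before the RefSeq start are printed 5′ to 3′ on the plus strand of GRCh38.p14, with CCAAT boxes (CCAAT or, on the other strand, ATTGG) and CHR elements (TTTGAA or TTCAAA) in capitals. They lie at chr5:69167030-69167149 (CCNB1), chr15:59105026-59105145 (CCNB2), chr1:154974561-154974680 (CKS1B) and chr9:89311075-89311194 (CKS2).
CCNB1: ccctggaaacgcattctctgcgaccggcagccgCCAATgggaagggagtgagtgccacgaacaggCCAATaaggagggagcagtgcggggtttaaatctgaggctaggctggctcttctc
CCNB2: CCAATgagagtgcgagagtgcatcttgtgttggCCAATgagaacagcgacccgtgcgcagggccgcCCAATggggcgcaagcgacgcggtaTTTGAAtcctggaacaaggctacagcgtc
CKS1B: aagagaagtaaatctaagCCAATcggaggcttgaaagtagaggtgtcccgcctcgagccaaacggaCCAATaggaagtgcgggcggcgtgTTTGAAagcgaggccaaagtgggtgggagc
CKS2: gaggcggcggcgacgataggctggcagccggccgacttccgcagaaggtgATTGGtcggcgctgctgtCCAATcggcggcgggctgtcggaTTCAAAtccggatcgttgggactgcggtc
CCNB2, CKS1B and CKS2 each hold 1 such TTTGAA, and CCNB1 holds none in this stretch. Only these exact letters were searched for, so a CHR element with other letters would not be counted. Each of the 4 holds at least 2 CCAAT boxes. In the full RefSeq windows, 250 bases before to 50 after each start, 39 of the 47 members were present, and 29 of these 39 (74.4%) held TTTGAA on either strand. The same letters stood in 18.2% of all 27305 genes of that table, in 8.0% of 50 S phase genes and in 44 of 88 other mitosis genes. CCAAT stood in 76.9% of the members and in 39.7% of all genes, and both motifs in 61.5% and 7.26%. A match describes letters in a window and is not a measured binding site.

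Libraries held 12.5 to 37.5 M counts (mean 26.4 M). The 6 markers of HEK293T cells used as a check were all at 1 CPM (1 count per 1 M counts) or more. Of the markers of other cell types, 3 of 7 for blood, 1 of 5 for fibroblasts and 3 of 5 for epithelium and hepatocytes reached 1 CPM in input, and PTPRC, CD3E, COL1A2, ALB and APOA1 did not. As a check of the labels, each fused reader gene was highest in input of its own line. YTHDF1 stood at 634 CPM in YTHDF1-ADAR inputs, against 87.9 and 94.0 CPM in those of the YTHDF2-ADAR and YTHDF3-ADAR lines. YTHDF2 stood at 321 CPM in YTHDF2-ADAR inputs, against 154 CPM (YTHDF1-ADAR) and 197 CPM (YTHDF3-ADAR). YTHDF3 stood at 122.6 CPM in YTHDF3-ADAR inputs, against 52.8 CPM (YTHDF1-ADAR) and 54.8 CPM (YTHDF2-ADAR). ADARB1, an editing enzyme gene, stood at 521 CPM in YTHDF1-ADAR, 58.2 CPM in YTHDF2-ADAR and 2091 CPM in YTHDF3-ADAR inputs, and ADAR at 344, 413 and 475 CPM. The labels do not say which ADAR gene was fused. A group of 6 libraries, the YTHDF1 RIPs of the YTHDF2-ADAR and YTHDF3-ADAR lines, stood apart from the other 30. They were the shallowest as a group (12.5 to 16.3 M, against 15.9 to 37.5 M), gave 54.1 to 74.2% of counts to protein-coding genes (71.5 to 92.4% in the others), 0.697 to 4.35% to snoRNAs (0.0360 to 0.564%) and 32.3 to 54.3 CPM to olfactory receptor genes (2.82 to 18.5 CPM). Every YTHDF1 result in these lines rests on them. The members took 0.806% ± 0.088 (SD) of protein-coding counts in these 6 libraries, 0.752% ± 0.107 in the 3 YTHDF1 RIPs of YTHDF1-ADAR cells, 0.716% ± 0.054 in the 9 YTHDF3 RIPs, 0.587% ± 0.082 in the 9 YTHDF2 RIPs and 0.600% ± 0.023 in the 9 inputs. These shares are sums, in which abundant messages weigh most. The highest share was 0.961%, in YTHDF1 RIP 2 of YTHDF3-ADAR cells. With the scaling given below, CENPF stood there at 1869, MKI67 at 1116 and CENPE at 335 CPM, against 432, 284 and 61.6 CPM in input 2. By count, 27, 36 and 38 of the 47 members were lower than input in YTHDF1 RIPs of the 3 lines. Of all genes tested, 28.8%, 33.4% and 32.4% were lower there, and of protein-coding genes 36.1%, 51.1% and 50.2%.

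Changes are given as log2 fold ± standard error on TMM-scaled counts, so they compare shares of a library and not amounts per cell. The standard error uses a spread per gene estimated over all 12 groups, so it does not follow the spread of the groups compared. That spread was unequal. The members' median log2 range over replicates was 0.90 in YTHDF2 RIPs and 0.69 in YTHDF1 RIPs of YTHDF1-ADAR cells. It was 0.20 to 0.42 in the other groups. "Higher" and "lower" mean a Benjamini-Hochberg-adjusted p under 0.05 over all 31849 genes by edgeR's quasi-likelihood test. CPM values of the members are TMM-scaled and, unless a mean is named, given for single libraries in the order of replicates 1, 2 and 3. Those of the reader and ADAR genes above are TMM-scaled means over the inputs of a line. The limit of 1 CPM for markers was set on means over libraries. Olfactory receptor CPM are shares of total counts without TMM scaling.

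In YTHDF3 RIPs the messages parted in both directions. Of the 47, 11 were higher and 12 lower than in input in YTHDF1-ADAR cells (median 0.14). Of all genes tested there, 11.5% were higher and 20.1% lower, 31.6% in all. In YTHDF2-ADAR cells 8 were higher and 12 lower (median 0.02; 15.2% and 16.9% of all genes, 32% together). In YTHDF3-ADAR cells 10 were higher and 10 lower (median 0.02; 13.5% and 16.1%, 29.6% together). The medians over all genes were -0.23, 0.09 and 0.01 in these lines. CDCA2, CDCA8, CKAP5, KIF11, MKI67, NCAPD2 and TOP2A were higher in all 3 lines, as were 8.74% of all genes tested. AURKB, BIRC5, CDC20, CDK1, CENPA, CKS1B, CKS2, NEK2 and UBE2C were lower in all 3, as were 12.6% of genes, and 21 members passed in no line. CKAP5, KIF11, MKI67, NCAPD2 and TOP2A of the 7 higher ones, and 8 of the 9 lower ones (all but BIRC5), kept their call in every line under every alternative tried. Scaling by total counts moved the split to 21 higher and 8 lower in YTHDF1-ADAR cells, 15 and 8 in YTHDF2-ADAR cells, and 15 and 9 in YTHDF3-ADAR cells. That scaling gave medians of 0.43, 0.29 and 0.25 for the members and of 0.04, 0.37 and 0.24 for all genes. With single libraries left out the members' median lay between 0.06 and 0.17 in YTHDF1-ADAR cells, between -0.08 and 0.03 in YTHDF2-ADAR cells, and between -0.05 and 0.07 in YTHDF3-ADAR cells.

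In YTHDF2 RIPs the messages that passed were mostly lower than in input. There were 4 higher and 18 lower in YTHDF1-ADAR cells (median -0.40; 8.66% of all genes higher and 15.5% lower, 24.1% together). There were 3 and 13 in YTHDF2-ADAR cells (median -0.26; 10.2% and 10.1%, 20.3% together). In YTHDF3-ADAR cells 3 were higher and 14 lower (median -0.39; 8.98% and 9.93%, 18.9% together). The medians of all genes were -0.11, 0.02 and 0.00052. BIRC5 alone was higher in all 3 lines (5.97% of all genes were). CCNB2, CDCA3, CDK1, CENPA, CKS1B, CKS2, NEK2, NUF2, TMPO, TTK and UBE2C were lower in all 3 (7.16% of genes), and 7 of these 11 kept that call in every line under every alternative, namely CCNB2, CDCA3, CDK1, CKS1B, CKS2, TTK and UBE2C. Another 21 members passed in no line. With total-count scaling the splits were 8 higher and 14 lower in YTHDF1-ADAR cells, 7 and 10 in YTHDF2-ADAR cells and 6 and 8 in YTHDF3-ADAR cells, with medians of all genes at 0.09, 0.22 and 0.19. The YTHDF1-ADAR count was 10 higher and 14 lower without YTHDF2 RIP 3 (median -0.26), a library in which the members' median lay at -0.96 relative to the mean input, against -0.45 and -0.11 in YTHDF2 RIPs 1 and 2. That library held 15.9 M counts (27.2 and 26.6 M in RIPs 1 and 2), with 82.8% in protein-coding genes (90.0% and 90.3%), 0.564% in snoRNAs (0.155% and 0.115%) and 18.5 CPM in olfactory receptor genes (7.54 and 6.24 CPM). The part of these values in its result was not tested. In YTHDF2-ADAR cells 1 was higher and 10 lower without input 3, and 1 and 11 without YTHDF2 RIP 1. In YTHDF3-ADAR cells 9 were lower without any 1 input, with 2, 3 and 1 higher, and the counts were 1 and 12, 3 and 8, and 1 and 8 without YTHDF2 RIP 1, 2 and 3. The same replicate numbers of input and YTHDF2 RIP deviated together in that line, and with a replicate block NDC80 (adjusted p = 0.0569) and NEK2 (0.0528) no longer passed there. Fitted on the groups compared alone, the counts were 2 higher and 9 lower, 5 and 24, and 5 and 24 in the 3 lines.

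In YTHDF1 RIPs most messages were lower than in input, with a few high exceptions. The counts were 8 higher and 27 lower in YTHDF1-ADAR cells (median -0.54; 20.6% of all genes higher and 28.8% lower, 49.5% together). They were 3 and 36 in YTHDF2-ADAR cells (median -0.90; 41.8% and 33.4%, 75.2% together), and 4 and 38 in YTHDF3-ADAR cells (median -0.95; 40.8% and 32.4%, 73.2% together). Of protein-coding genes, 29.1% were higher and 36.1% lower in YTHDF1-ADAR cells (median -0.16). The shares were 22.4% and 51.1% in YTHDF2-ADAR cells (median -0.48), and 22.1% and 50.2% in YTHDF3-ADAR cells (median -0.45). Of S phase genes, 63.5%, 68.3% and 69.8% were lower in the 3 lines. CENPE, CENPF and MKI67 were higher in all 3 lines (3.37% of genes were), and 23 members were lower in all 3 (15.1% of genes). These 3, and 12 of the 23 (ANP32E, BUB1, CCNB2, CDC20, CDK1, CENPA, CKS1B, CKS2, DLGAP5, NEK2, NUSAP1 and UBE2C), held under every alternative in every line. The part of the low protein-coding share in the lower calls of YTHDF2-ADAR and YTHDF3-ADAR cells was not tested. Scaled on protein-coding genes, the counts there were 6 higher and 26 lower (median -0.46) and 6 and 23 (median -0.51), and by total counts 7 and 21, and 4 and 27. Under these scalings the medians of all genes lay between 0.54 and 0.72, against 0.20 and 0.21. In YTHDF1-ADAR cells 5 were higher and 29 lower without YTHDF1 RIP 3 (median -0.89). In YTHDF3-ADAR cells the replicate numbers of input and YTHDF1 RIP deviated together, and with a replicate block KIF20B (adjusted p = 0.0754) and HJURP (0.0616) no longer passed, while CKAP5 newly did so (0.0469).

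**Figure D1:**
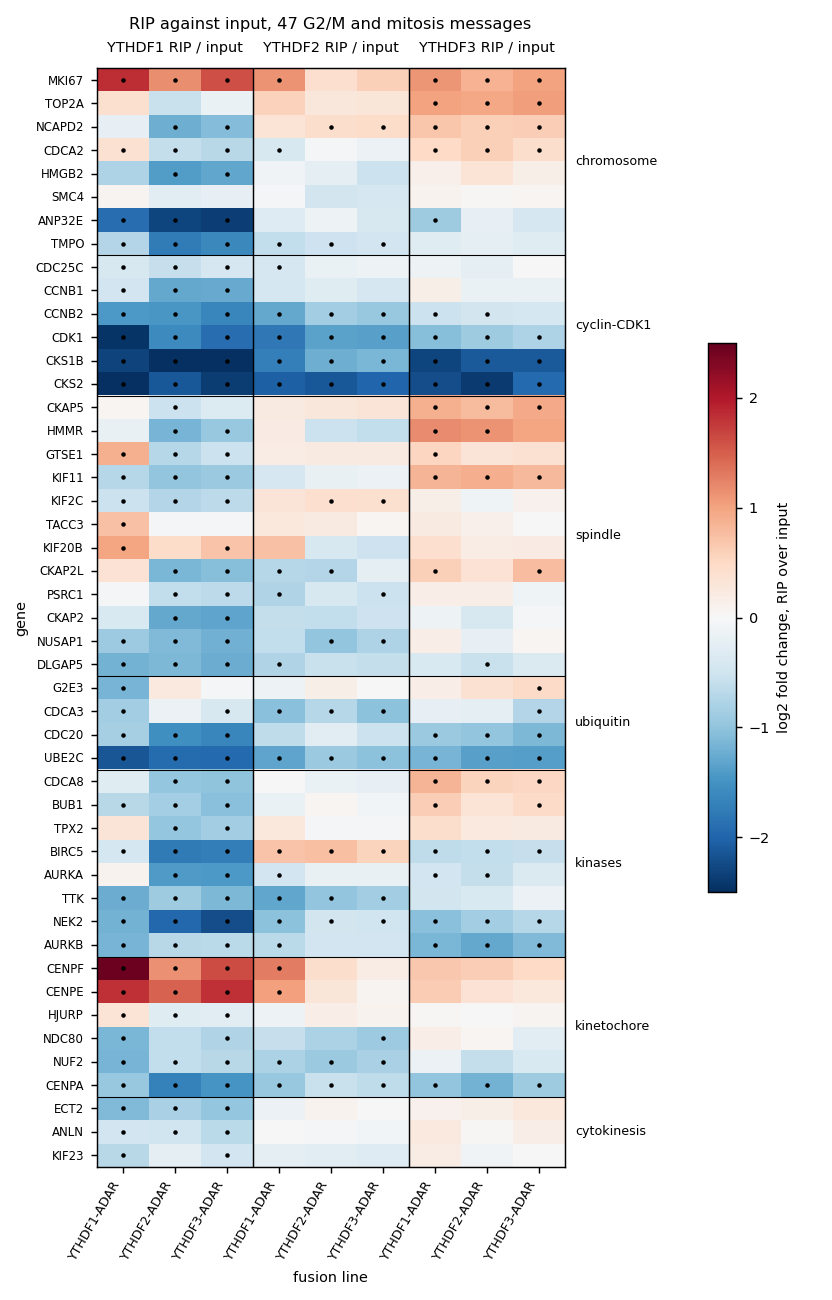
Heatmap of log2 fold changes of the 47 messages (rows, by role) in YTHDF1, YTHDF2 and YTHDF3 RIPs over input, with 3 columns per antibody, 1 for each line; colour runs from blue (lower) to red (higher) and saturates at 2.5, and dots mark adjusted p under 0.05. The cyclin-CDK1 rows are blue across all 9 columns apart from CCNB1 and CDC25C in YTHDF3 RIPs, and MKI67, CENPF and CENPE are the reddest rows in the YTHDF1 columns.

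The cyclin-CDK1 switch, 6 members, had the lowest median of the role groups in 8 of the 9 comparisons with input. Across the YTHDF1-, YTHDF2- and YTHDF3-ADAR lines its medians were -1.88, -1.53 and -1.77 in YTHDF1 RIPs. They were -1.49, -1.05 and -1.04 in YTHDF2 RIPs, and -0.80, -0.67 and -0.61 in YTHDF3 RIPs. None of the 6 was higher in any. The exception was YTHDF3 RIPs of YTHDF3-ADAR cells, where the ubiquitin ligase genes had a median of -0.93. CKS2 (ENSG00000123975, chr9:89311195-89316703, plus strand), a small subunit that binds CDK1 and guides it to phosphorylated substrates, has the shortest summed exon length of the members (616 bases). It lay at 5.82, 4.66 and 8.76 CPM in YTHDF1 RIPs, 11.4, 10.52 and 5.497 in YTHDF2 RIPs, 8.41, 8.72 and 7.32 in YTHDF3 RIPs and 20.8, 46.7 and 45.4 in input of YTHDF1-ADAR cells. In YTHDF2-ADAR cells CKS2 stood at 10.8, 13.2 and 10.9 CPM in YTHDF1 RIPs, 10.3, 12.7 and 12.04 in YTHDF2 RIPs, 10.2, 4.38 and 14.5 in YTHDF3 RIPs and 55.5, 47.6 and 49.4 in input. In YTHDF3-ADAR cells CKS2 stood at 6.95, 9.18 and 6.85 CPM in YTHDF1 RIPs, 10.7, 10.2 and 9.57 in YTHDF2 RIPs, 7.46, 7.47 and 16.2 in YTHDF3 RIPs and 39.3, 32.5 and 48.3 in input. Every RIP library of a line lay below every input of that line. The 9 log2 fold changes against input lay between -2.55 and -1.95. Over the 9 pairs of RIPs within a line the largest difference was -0.51 ± 0.34 (YTHDF1 against YTHDF2 RIP in YTHDF1-ADAR cells, adjusted p = 0.249).

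CDK1 (ENSG00000170312, chr10:60778331-60794852, plus strand), the kinase of the switch, was also lower in all 9, with the strongest shift in YTHDF1 RIPs and the mildest in YTHDF3 RIPs of each line. In YTHDF1-ADAR cells it lay at 7.51, 7.01 and 14.9 CPM in YTHDF1 RIPs, 16.5, 16.0 and 14.2 in YTHDF2 RIPs, 27.0, 24.5 and 25.2 in YTHDF3 RIPs and 46.0, 59.2 and 56.3 in input. In YTHDF2-ADAR cells CDK1 stood at 25.8, 23.3 and 19.3 CPM in YTHDF1 RIPs, 24.5, 22.2 and 34.9 in YTHDF2 RIPs, 44.6, 26.1 and 41.3 in YTHDF3 RIPs and 66.1, 68.7 and 71.7 in input. In YTHDF3-ADAR cells CDK1 stood at 17.8, 16.8 and 17.6 CPM in YTHDF1 RIPs, 30.2, 22.7 and 23.5 in YTHDF2 RIPs, 35.9, 38.8 and 39.6 in YTHDF3 RIPs and 66.1, 58.8 and 70.1 in input. No RIP library reached an input of its line. In YTHDF1 RIPs CDK1 changed against input by -2.45 ± 0.21 in YTHDF1-ADAR cells, -1.59 ± 0.20 in YTHDF2-ADAR cells and -1.90 ± 0.21 in YTHDF3-ADAR cells. The changes in YTHDF2 RIPs were -1.79 ± 0.20 in YTHDF1-ADAR cells, -1.34 ± 0.20 in YTHDF2-ADAR cells and -1.35 ± 0.20 in YTHDF3-ADAR cells. Those in YTHDF3 RIPs were -1.07 ± 0.20 in YTHDF1-ADAR cells, -0.88 ± 0.20 in YTHDF2-ADAR cells and -0.77 ± 0.20 in YTHDF3-ADAR cells. YTHDF2 RIPs held less CDK1 than YTHDF3 RIPs in YTHDF1-ADAR (-0.72 ± 0.20, adjusted p = 0.00897) and YTHDF3-ADAR cells (-0.58 ± 0.20, adjusted p = 0.0424). The difference missed the limit in YTHDF2-ADAR cells (-0.46 ± 0.20, adjusted p = 0.1), and the YTHDF3-ADAR call was lost under 5 alternatives, each with 1 library left out (adjusted p up to 0.177).

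The partners are taken by paralog pair. CCNB1, the main mitotic cyclin, lay at 51.9, 57.0 and 38.4 CPM in YTHDF1 RIPs, 81.9, 82.8 and 96.7 in YTHDF2 RIPs and 116, 92.7 and 107 in YTHDF3 RIPs of YTHDF3-ADAR cells. Input held 112, 109 and 131 CPM. Against input CCNB1 passed in YTHDF2 RIPs of no line (-0.45 in YTHDF1-ADAR cells, -0.30 in YTHDF2-ADAR cells and -0.43 in YTHDF3-ADAR cells). Nor did it pass in YTHDF3 RIPs (0.15 in YTHDF1-ADAR cells, -0.16 in YTHDF2-ADAR cells and -0.16 in YTHDF3-ADAR cells). CCNB2, its close relative, lay at 12.2, 10.8 and 10.7 CPM in YTHDF1 RIPs, 18.8, 18.3 and 17.4 in YTHDF2 RIPs and 26.1, 24.5 and 26.4 in YTHDF3 RIPs of that line. Input held 32.4, 33.0 and 39.2 CPM. CCNB2 was lower in YTHDF2 RIPs of every line (-1.27 ± 0.19 in YTHDF1-ADAR cells, -0.87 ± 0.19 in YTHDF2-ADAR cells and -0.94 ± 0.19 in YTHDF3-ADAR cells). In YTHDF3 RIPs CCNB2 gave -0.53 in YTHDF1-ADAR cells, -0.47 in YTHDF2-ADAR cells and -0.44 in YTHDF3-ADAR cells, and was lower in some lines but not in all. Both paralogs were lower in YTHDF1 RIPs of every line. CCNB1 changed there by -0.48, -1.27 and -1.25 in the YTHDF1-, YTHDF2- and YTHDF3-ADAR lines, and CCNB2 by -1.44, -1.46 and -1.64. The difference between the paralogs itself was not tested. CKS1B, the relative of CKS2, has 7 pseudogene copies, which makes its counts uncertain. In YTHDF1 RIPs it changed by -2.32 ± 0.25 in YTHDF1-ADAR cells, -2.99 ± 0.26 in YTHDF2-ADAR cells and -3.19 ± 0.26 in YTHDF3-ADAR cells. In YTHDF2 RIPs it changed by -1.70 in YTHDF1-ADAR cells, -1.23 in YTHDF2-ADAR cells and -1.13 in YTHDF3-ADAR cells. In YTHDF3 RIPs it changed by -2.30 in YTHDF1-ADAR cells, -2.11 in YTHDF2-ADAR cells and -2.11 in YTHDF3-ADAR cells. Unlike CKS2 it was higher in YTHDF2 than in YTHDF3 RIPs of YTHDF2-ADAR (0.88 ± 0.24, adjusted p = 0.00658) and YTHDF3-ADAR cells (0.97 ± 0.24, adjusted p = 0.00397), with 0.60 ± 0.24, adjusted p = 0.079 in YTHDF1-ADAR cells. The YTHDF3-ADAR call was lost without YTHDF2 RIP 1 (adjusted p = 0.053). CDC25C, the phosphatase that frees CDK1 from inhibition, had the highest mean of the 6 over YTHDF2 and YTHDF3 RIPs. In YTHDF2 RIPs CDC25C gave -0.43 in YTHDF1-ADAR cells, -0.18 in YTHDF2-ADAR cells and -0.14 in YTHDF3-ADAR cells, of which the first passed. In YTHDF3 RIPs they were -0.13 in YTHDF1-ADAR cells, -0.23 in YTHDF2-ADAR cells and 0.02 in YTHDF3-ADAR cells, where none passed. The 1 call was lost under 8 alternatives (adjusted p up to 0.382). Its YTHDF1 calls were lost under total-count scaling in all 3 lines, and it overlaps FAM53C.

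Among the 4 ubiquitin ligase genes, UBE2C, the ubiquitin-conjugating enzyme of the anaphase-promoting complex, was lower in all 9 comparisons. It lay at 14.2, 15.5 and 17.2 CPM in YTHDF1 RIPs, 31.3, 30.2 and 31.6 in YTHDF2 RIPs and 24.0, 19.1 and 26.4 in YTHDF3 RIPs of YTHDF2-ADAR cells. Input held 63.1, 58.7 and 55.7 CPM. In YTHDF1 RIPs UBE2C changed by -2.13 in YTHDF1-ADAR cells, -1.92 in YTHDF2-ADAR cells and -1.94 in YTHDF3-ADAR cells. In YTHDF2 RIPs the changes were -1.32 in YTHDF1-ADAR cells, -0.93 in YTHDF2-ADAR cells and -1.03 in YTHDF3-ADAR cells, and in YTHDF3 RIPs -1.16 in YTHDF1-ADAR cells, -1.35 in YTHDF2-ADAR cells and -1.38 in YTHDF3-ADAR cells. UBE2C has 5 pseudogenes that could take or give reads. CDC20, which activates that complex at anaphase, was lower in YTHDF3 RIPs (-0.93 ± 0.25 in YTHDF1-ADAR cells, -0.98 ± 0.25 in YTHDF2-ADAR cells and -1.12 ± 0.25 in YTHDF3-ADAR cells). It passed in YTHDF2 RIPs of no line (-0.63 in YTHDF1-ADAR cells, -0.27 in YTHDF2-ADAR cells and -0.53 in YTHDF3-ADAR cells). CDCA3, an adaptor of an SCF ligase that targets WEE1, stood the other way, lower in YTHDF2 RIPs of every line (-1.04 ± 0.17 in YTHDF1-ADAR cells, -0.72 ± 0.16 in YTHDF2-ADAR cells and -1.03 ± 0.17 in YTHDF3-ADAR cells). In YTHDF3 RIPs it was lower in YTHDF3-ADAR cells alone (-0.21 in YTHDF1-ADAR cells, -0.24 in YTHDF2-ADAR cells and -0.73 in YTHDF3-ADAR cells). G2E3, a ligase with peak levels in G2, had the highest changes of the 4 in YTHDF2 and YTHDF3 RIPs of every line, and in YTHDF1 RIPs of YTHDF1-ADAR cells stood at -1.17 ± 0.17. In YTHDF3-ADAR cells it lay at 39.3, 32.0 and 35.1 CPM in YTHDF1 RIPs, 34.9, 33.6 and 42.3 in YTHDF2 RIPs and 45.1, 57.0 and 51.3 in YTHDF3 RIPs. Input held 36.4, 33.0 and 41.2 CPM. The YTHDF3 RIPs were higher than input there (0.47 ± 0.17, adjusted p = 0.0306). That call was lost without input 1 or 2, or without YTHDF3 RIP 2 or 3 (adjusted p up to 0.140).

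Mitotic kinases and their partners, 8 members, held the clearest contrast between antibodies. BIRC5 (ENSG00000089685, chr17:78214186-78225636, plus strand) encodes survivin, a subunit of the chromosomal passenger complex with AURKB and CDCA8. In YTHDF1-ADAR cells it lay at 109, 110.0 and 128 CPM in YTHDF1 RIPs, 275, 239.6 and 255 in YTHDF2 RIPs, 127, 92.7 and 86.5 in YTHDF3 RIPs and 130.1, 163 and 179.7 in input. In YTHDF2-ADAR cells BIRC5 stood at 60.7, 70.5 and 69.2 CPM in YTHDF1 RIPs, 385, 367 and 401 in YTHDF2 RIPs, 142, 148 and 156 in YTHDF3 RIPs and 226, 241 and 218 in input. In YTHDF3-ADAR cells BIRC5 stood at 66.4, 59.7 and 44.4 CPM in YTHDF1 RIPs, 238, 276 and 317 in YTHDF2 RIPs, 134, 109.8 and 136 in YTHDF3 RIPs and 195, 186 and 185 in input. In each line all 3 YTHDF2 RIPs exceeded all other libraries of that line. BIRC5 was higher in YTHDF2 RIPs than in input, by 0.70 ± 0.15 (adjusted p = 0.000493) in YTHDF1-ADAR cells, 0.75 ± 0.15 (adjusted p = 0.00034) in YTHDF2-ADAR cells and 0.55 ± 0.15 (adjusted p = 0.00759) in YTHDF3-ADAR cells. In YTHDF3 RIPs it was lower, at -0.63 ± 0.15 (adjusted p = 0.00121) in YTHDF1-ADAR cells, -0.62 ± 0.15 (adjusted p = 0.00143) in YTHDF2-ADAR cells and -0.58 ± 0.15 (adjusted p = 0.00301) in YTHDF3-ADAR cells. It was lower in YTHDF1 RIPs too, at -0.44 ± 0.15 in YTHDF1-ADAR cells, -1.77 ± 0.16 in YTHDF2-ADAR cells and -1.73 ± 0.16 in YTHDF3-ADAR cells. Under total-count scaling the YTHDF3 calls were lost in all 3 lines (highest adjusted p 0.1004, 0.063 and 0.0663 over the alternatives). The YTHDF2 call in YTHDF3-ADAR cells was lost without YTHDF2 RIP 3 (adjusted p = 0.0693). The YTHDF1 call in YTHDF1-ADAR cells was lost under 6 alternatives (adjusted p up to 0.202), among them leaving out input 3 or YTHDF1 RIP 1 or 2.

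AURKB, the kinase of the same complex, had the opposite sign to BIRC5 in YTHDF2 RIPs and the same sign in YTHDF3 RIPs. It lay at 54.8, 62.0 and 63.6 CPM in YTHDF1 RIPs, 68.3, 72.0 and 69.3 in YTHDF2 RIPs and 35.7, 35.7 and 48.6 in YTHDF3 RIPs of YTHDF2-ADAR cells. Input held 101.97, 94.5 and 94.2 CPM. Its change in YTHDF3 RIPs was -1.15 ± 0.18 in YTHDF1-ADAR cells, -1.28 ± 0.18 in YTHDF2-ADAR cells and -1.10 ± 0.18 in YTHDF3-ADAR cells, lower in every line. Its YTHDF2 values were -0.67 ± 0.18 (adjusted p = 0.00417) in YTHDF1-ADAR cells, -0.47 ± 0.18 (adjusted p = 0.0551) in YTHDF2-ADAR cells and -0.48 ± 0.18 (adjusted p = 0.0514) in YTHDF3-ADAR cells, and the first was lost when fitted on the groups compared alone (adjusted p = 0.0921). CDCA8, which encodes borealin, was higher in YTHDF3 RIPs (0.85 ± 0.19 in YTHDF1-ADAR cells, 0.56 ± 0.19 in YTHDF2-ADAR cells and 0.53 ± 0.19 in YTHDF3-ADAR cells). It passed in YTHDF2 RIPs of no line (0.01 in YTHDF1-ADAR cells, -0.16 in YTHDF2-ADAR cells and -0.20 in YTHDF3-ADAR cells). In YTHDF2-ADAR and YTHDF3-ADAR cells the YTHDF3 calls of CDCA8 were lost with single libraries left out, with adjusted p up to 0.139 and 0.118. AURKA, the spindle-pole Aurora kinase, changed in YTHDF3 RIPs by -0.47 in YTHDF1-ADAR cells, -0.60 in YTHDF2-ADAR cells and -0.36 in YTHDF3-ADAR cells, of which the first 2 passed. In YTHDF2 RIPs it changed by -0.47 in YTHDF1-ADAR cells, -0.18 in YTHDF2-ADAR cells and -0.18 in YTHDF3-ADAR cells, of which the first passed. The calls in YTHDF1-ADAR cells were lost under 7 alternatives each, leaving out input 2 or 3 among them (adjusted p up to 0.243 for YTHDF2 and 0.365 for YTHDF3).

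Of the checkpoint kinases, TTK passed in YTHDF2 RIPs and BUB1 in some YTHDF3 RIPs, while both were lower in YTHDF1 RIPs. TTK, which recruits checkpoint proteins to kinetochores, lay at 16.3, 19.3 and 14.1 CPM in YTHDF2 RIPs and 27.2, 27.5 and 33.6 in YTHDF3 RIPs of YTHDF1-ADAR cells. Input held 37.5, 43.5 and 40.8 CPM. TTK was lower in YTHDF2 RIPs (-1.29 ± 0.19 in YTHDF1-ADAR cells, -0.99 ± 0.19 in YTHDF2-ADAR cells and -0.86 ± 0.19 in YTHDF3-ADAR cells). It passed in YTHDF3 RIPs of no line (-0.46 in YTHDF1-ADAR cells, -0.38 in YTHDF2-ADAR cells and -0.14 in YTHDF3-ADAR cells). BUB1, its partner in the checkpoint, was higher in YTHDF3 RIPs of YTHDF1-ADAR (0.61 ± 0.15) and YTHDF3-ADAR cells (0.47 ± 0.15). In YTHDF2-ADAR cells it stood at 0.35 ± 0.15, adjusted p = 0.0809. In YTHDF1 RIPs BUB1 was lower (-0.70 in YTHDF1-ADAR cells, -0.85 in YTHDF2-ADAR cells and -1.04 in YTHDF3-ADAR cells), as was TTK (-1.25, -0.90 and -1.12 in these lines). BUB1 passed in YTHDF2 RIPs of no line (-0.17, 0.05 and -0.07). Between YTHDF2 and YTHDF3 RIPs both had negative values in every line (TTK -0.83, -0.61 and -0.72, BUB1 -0.79, -0.30 and -0.55). Its YTHDF3 call in YTHDF3-ADAR cells was lost without YTHDF3 RIP 1 or 2 (adjusted p up to 0.0702). NEK2, which splits centrosomes, was lower in the RIPs of all 3 proteins in every line (-1.18 in YTHDF1-ADAR cells, -1.95 in YTHDF2-ADAR cells and -2.22 in YTHDF3-ADAR cells for YTHDF1). It has 3 pseudogenes. Its YTHDF2 calls in YTHDF2-ADAR and YTHDF3-ADAR cells were lost under 7 and 8 alternatives (adjusted p up to 0.246 and 0.194). TPX2, the activator of AURKA, passed in no YTHDF2 RIP (0.26 in YTHDF1-ADAR cells, -0.04 in YTHDF2-ADAR cells and -0.02 in YTHDF3-ADAR cells). It passed in no YTHDF3 RIP either (0.44 in YTHDF1-ADAR cells, 0.24 in YTHDF2-ADAR cells and 0.23 in YTHDF3-ADAR cells).

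Of the 6 centromere and kinetochore messages, those of the giant proteins CENPF and CENPE led the YTHDF1 RIPs. CENPF (ENSG00000117724, chr1:214603195-214664571, plus strand), a corona protein that binds dynein regulators, lay at 1683, 1749 and 1775 CPM in YTHDF1 RIPs, 895, 1144 and 276 in YTHDF2 RIPs, 477, 458 and 599 in YTHDF3 RIPs and 321, 304 and 332 in input of YTHDF1-ADAR cells. In YTHDF2-ADAR cells CENPF stood at 658, 991 and 1038 CPM in YTHDF1 RIPs, 634, 547 and 476 in YTHDF2 RIPs, 673, 635 and 575 in YTHDF3 RIPs and 397, 351 and 477 in input. In YTHDF3-ADAR cells CENPF stood at 960.1, 1869 and 1213 CPM in YTHDF1 RIPs, 509, 492 and 472 in YTHDF2 RIPs, 539, 651 and 641 in YTHDF3 RIPs and 430.0, 432 and 440.4 in input. All 9 YTHDF1 RIPs exceeded the inputs of their line, and YTHDF2 RIP 3 of YTHDF1-ADAR cells fell below them. The change in YTHDF1 RIPs was 2.44 ± 0.28 in YTHDF1-ADAR cells, 1.13 ± 0.27 in YTHDF2-ADAR cells and 1.63 ± 0.27 in YTHDF3-ADAR cells. In YTHDF2 RIPs CENPF passed in YTHDF1-ADAR cells alone (1.27 ± 0.27, adjusted p = 0.000485), and in YTHDF3 RIPs in none (0.68 in YTHDF1-ADAR cells, 0.62 in YTHDF2-ADAR cells and 0.49 in YTHDF3-ADAR cells). The YTHDF2 call was lost when fitted on the groups compared alone (adjusted p = 0.0617). CENPE, a kinesin that carries chromosomes to the spindle equator, was higher in YTHDF1 RIPs, at 1.83 ± 0.28 in YTHDF1-ADAR cells, 1.47 ± 0.27 in YTHDF2-ADAR cells and 1.84 ± 0.28 in YTHDF3-ADAR cells. In YTHDF3-ADAR cells it lay at 180.1, 335 and 251 CPM in YTHDF1 RIPs, 83.6, 71.5 and 68.8 in YTHDF2 RIPs and 64.4, 80.7 and 112 in YTHDF3 RIPs. Input held 70.5, 61.6 and 82.8 CPM.

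The small centromere message moved the other way. CENPA, the histone H3 variant that marks centromeres (summed exons 1949 bases), lay at 6.85, 7.98 and 8.49 CPM in YTHDF1 RIPs, 17.5, 18.1 and 15.6 in YTHDF2 RIPs and 13.0, 8.47 and 11.6 in YTHDF3 RIPs of YTHDF2-ADAR cells. Input held 25.0, 27.2 and 22.8 CPM. CENPA was lower in all 9 comparisons. In YTHDF3 RIPs CENPA changed by -0.98 in YTHDF1-ADAR cells, -1.18 in YTHDF2-ADAR cells and -0.89 in YTHDF3-ADAR cells. In YTHDF2 RIPs the values were -0.96 in YTHDF1-ADAR cells, -0.55 in YTHDF2-ADAR cells and -0.64 in YTHDF3-ADAR cells. NUF2, a subunit of the NDC80 complex that holds microtubules, was lower in YTHDF2 RIPs (-0.80 ± 0.27 in YTHDF1-ADAR cells, -0.92 ± 0.27 in YTHDF2-ADAR cells and -0.80 ± 0.26 in YTHDF3-ADAR cells). The YTHDF2 calls of NUF2 were lost with single libraries left out in each line, input 3 among them (adjusted p up to 0.141, 0.0528 and 0.168). It was lower in YTHDF1 RIPs too (-1.15 in YTHDF1-ADAR cells, -0.62 in YTHDF2-ADAR cells and -0.70 in YTHDF3-ADAR cells). In YTHDF2 RIPs its partner NDC80 gave -0.58 in YTHDF1-ADAR cells, -0.80 in YTHDF2-ADAR cells and -0.91 in YTHDF3-ADAR cells. In YTHDF3 RIPs NDC80 gave 0.16 in YTHDF1-ADAR cells, 0.05 in YTHDF2-ADAR cells and -0.27 in YTHDF3-ADAR cells. HJURP, the chaperone that loads CENPA, was called both ways in YTHDF1 RIPs, at 0.33 ± 0.13 in YTHDF1-ADAR cells, -0.31 ± 0.13 in YTHDF2-ADAR cells and -0.29 ± 0.13 in YTHDF3-ADAR cells. The negative values turned positive under total-count scaling, at 0.21 for YTHDF2-ADAR cells and 0.0505 for YTHDF3-ADAR cells. They did so on protein-coding genes as well, at 0.12 and 0.15. The call in YTHDF1-ADAR cells was lost under 5 alternatives (adjusted p up to 0.188).

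Of the 12 spindle messages, 5, 3 and 3 were higher in YTHDF3 RIPs of the 3 lines and 0, 1 and 0 lower, while 0, 1 and 1 were higher and 3, 2 and 2 lower in YTHDF2 RIPs. Of all genes tested, 11.5%, 15.2% and 13.5% were higher and 20.1%, 16.9% and 16.1% lower in YTHDF3 RIPs. In YTHDF2 RIPs these shares were 8.66%, 10.2% and 8.98%, and 15.5%, 10.1% and 9.93%. Of protein-coding genes, 18.2%, 21.5% and 21.3% were higher in YTHDF3 RIPs. KIF11 (ENSG00000138160, chr10:92574105-92655395, plus strand), the kinesin-5 that pushes spindle poles apart, lay at 48.02, 53.0 and 91.0 CPM in YTHDF1 RIPs, 88.3, 87.8 and 58.7 in YTHDF2 RIPs, 177, 164 and 229.7 in YTHDF3 RIPs and 89.5, 119.6 and 107 in input of YTHDF1-ADAR cells. In YTHDF2-ADAR cells KIF11 stood at 62.9, 60.3 and 62.0 CPM in YTHDF1 RIPs, 111, 98.3 and 115 in YTHDF2 RIPs, 236, 225 and 234 in YTHDF3 RIPs and 110.5, 118 and 140.1 in input. In YTHDF3-ADAR cells KIF11 stood at 61.7, 60.7 and 54.1 CPM in YTHDF1 RIPs, 95.8, 105 and 100.2 in YTHDF2 RIPs, 205, 185 and 194 in YTHDF3 RIPs and 113, 104 and 117 in input. The YTHDF3 RIPs lay above every other library of their line, and in YTHDF2-ADAR and YTHDF3-ADAR cells the YTHDF1 RIPs lay below every other. In YTHDF3 RIPs KIF11 changed by 0.85 ± 0.17 in YTHDF1-ADAR cells, 0.91 ± 0.17 in YTHDF2-ADAR cells and 0.80 ± 0.17 in YTHDF3-ADAR cells. In YTHDF2 RIPs it changed by -0.43 in YTHDF1-ADAR cells, -0.18 in YTHDF2-ADAR cells and -0.16 in YTHDF3-ADAR cells, where none passed. In YTHDF1 RIPs it changed by -0.72 in YTHDF1-ADAR cells, -0.99 in YTHDF2-ADAR cells and -0.92 in YTHDF3-ADAR cells. CKAP5, the microtubule polymerase of the group and its highest member on average, lay at 228, 293 and 201 CPM in YTHDF1 RIPs, 386, 370.4 and 394 in YTHDF2 RIPs and 589, 600.1 and 574 in YTHDF3 RIPs of YTHDF3-ADAR cells. Input held 306, 312 and 299 CPM. CKAP5 was higher in YTHDF3 RIPs, at 0.90 ± 0.17 in YTHDF1-ADAR cells, 0.79 ± 0.17 in YTHDF2-ADAR cells and 0.94 ± 0.17 in YTHDF3-ADAR cells.

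HMMR, a spindle-assembly factor that overlaps HMMR-AS1, lay at 20.1, 23.02 and 22.997 CPM in YTHDF1 RIPs, 36.4, 35.8 and 30.6 in YTHDF2 RIPs and 127, 86.0 and 109 in YTHDF3 RIPs of YTHDF2-ADAR cells. Input held 43.0, 45.9 and 59.8 CPM. It rose in YTHDF3 RIPs of YTHDF1-ADAR (1.17 ± 0.38, adjusted p = 0.0189) and YTHDF2-ADAR cells (1.11 ± 0.38, adjusted p = 0.025) and stood at 0.98 ± 0.38, adjusted p = 0.053 in YTHDF3-ADAR cells. Its calls were lost without input 1 or YTHDF3 RIP 3 of YTHDF1-ADAR cells (adjusted p up to 0.0691), and without input 1 or 2 or YTHDF3 RIP 1 or 3 of YTHDF2-ADAR cells (up to 0.0903). CKAP2L, which stabilises spindle microtubules, was higher in YTHDF3 RIPs of YTHDF1-ADAR and YTHDF3-ADAR cells (0.60 in YTHDF1-ADAR cells, 0.37 in YTHDF2-ADAR cells and 0.77 in YTHDF3-ADAR cells). It was lower in YTHDF2 RIPs of YTHDF1-ADAR and YTHDF2-ADAR cells (-0.71 in YTHDF1-ADAR cells, -0.72 in YTHDF2-ADAR cells and -0.23 in YTHDF3-ADAR cells). In YTHDF1-ADAR cells its YTHDF3 call was lost without input 1 or YTHDF3 RIP 3 (adjusted p up to 0.0718), and its YTHDF2 call when fitted on these groups alone (0.114). DLGAP5, the lowest of the 12 on average, gave in YTHDF2 RIPs -0.75 in YTHDF1-ADAR cells, -0.55 in YTHDF2-ADAR cells and -0.60 in YTHDF3-ADAR cells, of which the first passed but not without YTHDF2 RIP 3 or on these groups alone (adjusted p up to 0.114). In YTHDF1 RIPs all passed (-1.19 in YTHDF1-ADAR cells, -1.13 in YTHDF2-ADAR cells and -1.24 in YTHDF3-ADAR cells). KIF2C, a kinesin that takes microtubules apart, was the one spindle message higher in YTHDF2 RIPs, in YTHDF2-ADAR (0.43 ± 0.12) and YTHDF3-ADAR cells (0.40 ± 0.12). These calls were lost without input 3 or YTHDF2 RIP 1 of the line, and without the filter on low counts (adjusted p up to 0.171 and 0.138).

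The 3 cytokinesis messages differed from input in no YTHDF2 or YTHDF3 RIP. ECT2, which activates RhoA at the division plane, gave in YTHDF2 RIPs -0.14 in YTHDF1-ADAR cells, 0.09 in YTHDF2-ADAR cells and 0.01 in YTHDF3-ADAR cells. In YTHDF3 RIPs ECT2 gave 0.11 in YTHDF1-ADAR cells, 0.15 in YTHDF2-ADAR cells and 0.27 in YTHDF3-ADAR cells. KIF23, the kinesin of centralspindlin, gave in YTHDF2 RIPs -0.23 ± 0.21 in YTHDF1-ADAR cells, -0.26 ± 0.21 in YTHDF2-ADAR cells and -0.33 ± 0.21 in YTHDF3-ADAR cells. In YTHDF3 RIPs KIF23 gave 0.19 in YTHDF1-ADAR cells, -0.08 in YTHDF2-ADAR cells and 0.02 in YTHDF3-ADAR cells. In YTHDF1 RIPs ECT2 was lower in every line (-1.09 ± 0.16 in YTHDF1-ADAR cells, -0.80 ± 0.16 in YTHDF2-ADAR cells and -0.98 ± 0.16 in YTHDF3-ADAR cells). In YTHDF1-ADAR cells it held 30.9, 30.3 and 53.0 CPM in YTHDF1 RIPs, against 64.4, 89.5 and 90.4 CPM in input.

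Chromosome and chromatin messages, 8 members, supplied 4 of the higher YTHDF3 calls in each line (MKI67, TOP2A, NCAPD2 and CDCA2). MKI67 (ENSG00000148773, chr10:128096659-128126423, minus strand), which encodes Ki-67, the coat of mitotic chromosomes and the usual proliferation marker, has the longest summed exons of the members (12845 bases). It lay at 928, 1273 and 1388 CPM in YTHDF1 RIPs, 689.7, 1085 and 403 in YTHDF2 RIPs, 652, 698 and 802 in YTHDF3 RIPs and 347, 316 and 331 in input of YTHDF1-ADAR cells. In YTHDF2-ADAR cells MKI67 stood at 603, 873 and 902 CPM in YTHDF1 RIPs, 523, 468 and 437 in YTHDF2 RIPs, 690.4, 527 and 728 in YTHDF3 RIPs and 335, 349 and 383 in input. In YTHDF3-ADAR cells MKI67 stood at 575, 1116 and 779.9 CPM in YTHDF1 RIPs, 397, 410.2 and 419 in YTHDF2 RIPs, 430.1, 583 and 607 in YTHDF3 RIPs and 242, 284 and 283 in input. Every RIP library of a line lay above every input of that line. MKI67 was higher in YTHDF1 RIPs, at 1.85 ± 0.24 in YTHDF1-ADAR cells, 1.16 ± 0.23 in YTHDF2-ADAR cells and 1.61 ± 0.24 in YTHDF3-ADAR cells. It was higher in YTHDF3 RIPs too, at 1.11 ± 0.23 in YTHDF1-ADAR cells, 0.87 ± 0.23 in YTHDF2-ADAR cells and 1.00 ± 0.23 in YTHDF3-ADAR cells. In YTHDF2 RIPs it passed in YTHDF1-ADAR cells (1.13 ± 0.23, adjusted p = 0.000314). It did not pass in YTHDF2-ADAR (0.42 ± 0.23, adjusted p = 0.219) or YTHDF3-ADAR cells (0.60 ± 0.23, adjusted p = 0.0669).

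TOP2A, the topoisomerase that untangles sister chromatids, lay at 239, 384 and 273 CPM in YTHDF1 RIPs, 461, 387 and 389 in YTHDF2 RIPs and 632, 658 and 786 in YTHDF3 RIPs of YTHDF3-ADAR cells. Input held 335, 321 and 351 CPM. In YTHDF3 RIPs TOP2A was higher in every line (1.00 ± 0.26 in YTHDF1-ADAR cells, 0.96 ± 0.26 in YTHDF2-ADAR cells and 1.04 ± 0.26 in YTHDF3-ADAR cells). In YTHDF2 RIPs none passed (0.58 in YTHDF1-ADAR cells, 0.29 in YTHDF2-ADAR cells and 0.30 in YTHDF3-ADAR cells). NCAPD2, a condensin I subunit, was higher in YTHDF3 RIPs (0.70 ± 0.15 in YTHDF1-ADAR cells, 0.60 ± 0.15 in YTHDF2-ADAR cells and 0.62 ± 0.15 in YTHDF3-ADAR cells). SMC4, the ATPase that both condensins share, passed in no YTHDF1 RIP (0.07 in YTHDF1-ADAR cells, -0.28 in YTHDF2-ADAR cells and -0.20 in YTHDF3-ADAR cells). TMPO, a nuclear lamina protein and the lowest of the 8 on average, was lower in YTHDF2 RIPs (-0.62 ± 0.15 in YTHDF1-ADAR cells, -0.52 ± 0.15 in YTHDF2-ADAR cells and -0.47 ± 0.15 in YTHDF3-ADAR cells). These calls were lost in YTHDF1-ADAR cells without the filter or on the groups compared alone (adjusted p up to 0.138). They were lost with single libraries left out in the YTHDF2-ADAR line (up to 0.087) and the YTHDF3-ADAR line (up to 0.16). ANP32E, a chaperone that removes histone H2A.Z, was lower in YTHDF1 RIPs, at -1.91 ± 0.35 in YTHDF1-ADAR cells, -2.30 ± 0.35 in YTHDF2-ADAR cells and -2.36 ± 0.35 in YTHDF3-ADAR cells. It passed in no YTHDF2 RIP (-0.32 in YTHDF1-ADAR cells, -0.12 in YTHDF2-ADAR cells and -0.39 in YTHDF3-ADAR cells).

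**Figure D2:**
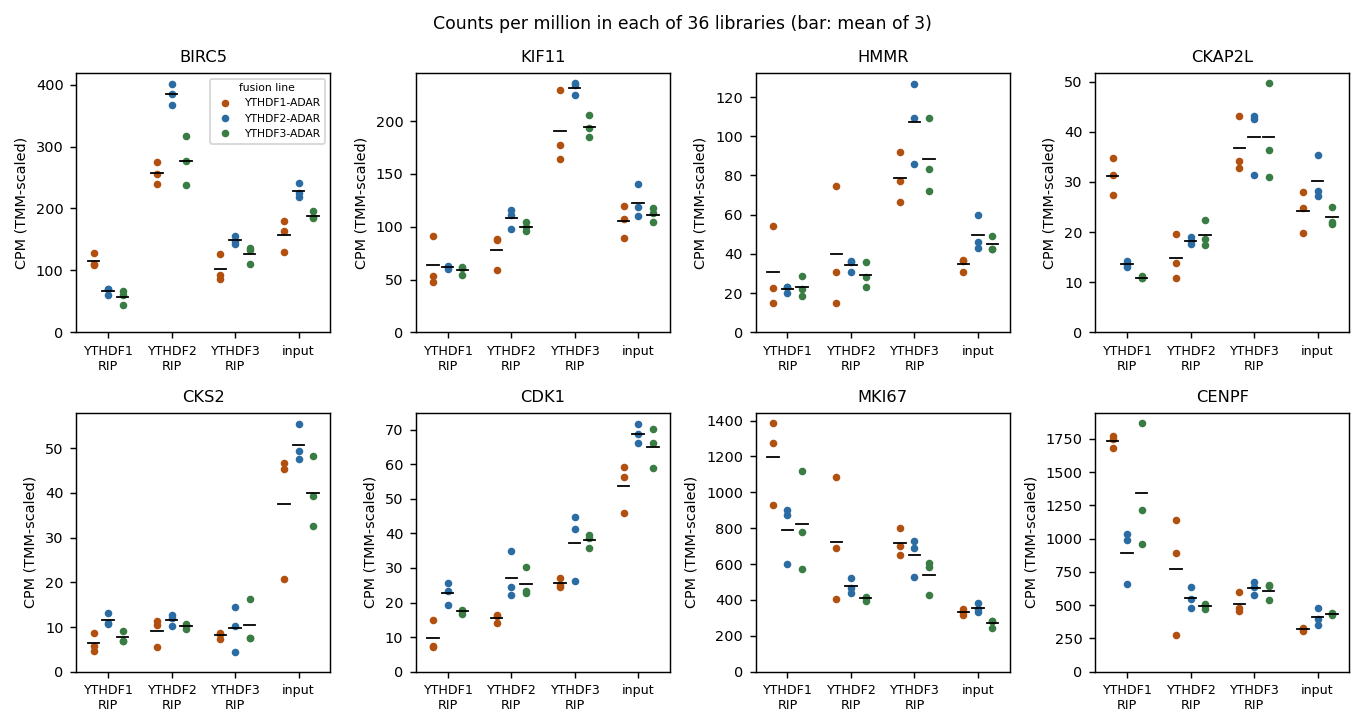
TMM-scaled CPM of 8 messages in each of the 36 libraries (points), with the mean of 3 libraries as a bar. Each panel runs from YTHDF1, YTHDF2 and YTHDF3 RIPs to input at the right, with the 3 lines side by side in colour. BIRC5 is highest in YTHDF2 RIPs and KIF11, HMMR and CKAP2L in YTHDF3 RIPs, CKS2 and CDK1 are highest in input, and MKI67 and CENPF in YTHDF1 RIPs, by the mean of each group.

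Set directly against YTHDF3 RIPs, YTHDF2 RIPs had more members lower than higher. There were 1 higher and 13 lower in YTHDF1-ADAR cells (median -0.30; 10.7% of all genes higher and 8.51% lower, 19.2% together). They were 7 and 11 in YTHDF2-ADAR cells (median -0.22; 12.1% and 8.33%, 20.4% together), and 3 and 10 in YTHDF3-ADAR cells (median -0.29; 9.01% and 5.74%, 14.8% together). The medians of all genes were 0.12, -0.02 and -0.0013. CDCA2, CDCA8, CKAP2L, CKAP5, KIF11, NUSAP1 and TTK were lower in all 3 lines (3.78% of genes were), and BIRC5 was the only one higher in all 3 (6.42% of genes). BIRC5 differed by 1.33 ± 0.15 (adjusted p = 5.02e-08) in YTHDF1-ADAR cells, 1.37 ± 0.15 (adjusted p = 4.78e-08) in YTHDF2-ADAR cells and 1.13 ± 0.15 (adjusted p = 3.04e-06) in YTHDF3-ADAR cells. KIF11 differed by -1.28 ± 0.17 (adjusted p = 1.05e-06) in YTHDF1-ADAR cells, -1.10 ± 0.17 (adjusted p = 1.35e-05) in YTHDF2-ADAR cells and -0.96 ± 0.17 (adjusted p = 0.000154) in YTHDF3-ADAR cells. CKAP2L differed by -1.31 ± 0.18 (adjusted p = 1.70e-06) in YTHDF1-ADAR cells, -1.09 ± 0.18 (adjusted p = 2.94e-05) in YTHDF2-ADAR cells and -1.003 ± 0.18 (adjusted p = 0.000156) in YTHDF3-ADAR cells. These 3 calls, and those of CDCA2, held in every line under every alternative. HMMR had the lowest value of the members in YTHDF2-ADAR and YTHDF3-ADAR cells, with -0.97 ± 0.38 (adjusted p = 0.0744) in YTHDF1-ADAR cells, -1.65 ± 0.39 (adjusted p = 0.00264) in YTHDF2-ADAR cells and -1.60 ± 0.39 (adjusted p = 0.00514) in YTHDF3-ADAR cells. NUSAP1, which bundles spindle microtubules and overlaps OIP5, gave -0.78 ± 0.26 in YTHDF1-ADAR cells, -0.78 ± 0.26 in YTHDF2-ADAR cells and -0.81 ± 0.26 in YTHDF3-ADAR cells. It lost its call in each line with at least 1 library left out, as did TTK and CDCA8 in YTHDF2-ADAR cells and CKAP5 in the first 2 lines.

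Counts of this comparison shifted with single libraries. In YTHDF1-ADAR cells there were 1 higher and 21 lower without YTHDF2 RIP 2 (median -0.51), and 6 higher and 11 lower without YTHDF2 RIP 3 (median -0.17), the shallow library described with the YTHDF2 RIPs. In YTHDF2-ADAR cells there were 5 higher and 6 lower without YTHDF2 RIP 1 or 2, 6 and 7 without YTHDF3 RIP 1, and 6 and 6 without YTHDF3 RIP 3. On protein-coding genes alone the split in YTHDF1-ADAR cells was 3 higher and 14 lower, and by total counts 1 and 21. Beside BIRC5, the members higher in YTHDF2-ADAR cells were AURKB (0.81 ± 0.18), CKS1B, CENPA (0.63 ± 0.16), CDC20 (0.71 ± 0.25), KIF2C (0.53 ± 0.12) and AURKA (0.42 ± 0.15). The AURKA and CDC20 calls were lost whichever YTHDF2 RIP was left out (adjusted p up to 0.211 and 0.177). Of 63 S phase genes, 20 to 25 were higher and 10 to 15 lower in the same comparison in the 3 lines, and of 103 other mitosis genes 14 to 24 were higher and 12 to 18 lower.

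**Figure D3:**
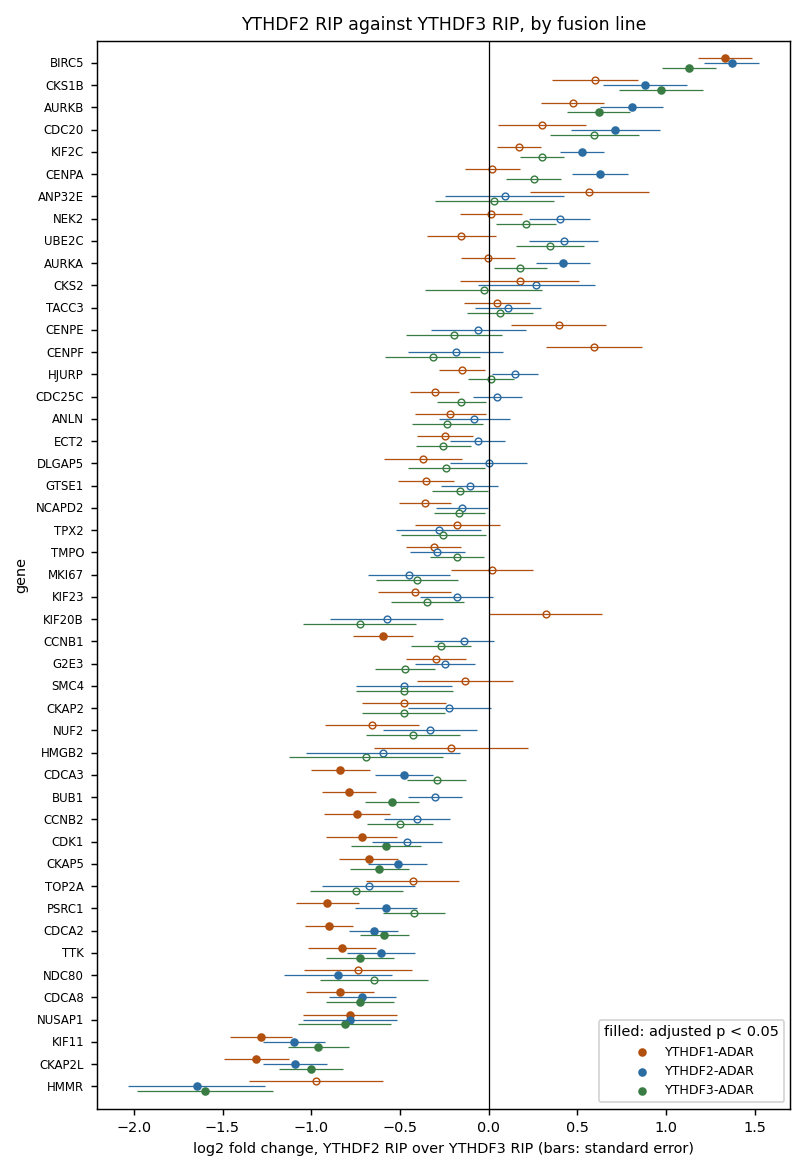
Log2 fold change of YTHDF2 over YTHDF3 RIP for each of the 47 messages (points, with bars of 1 standard error) in the 3 lines; filled points passed adjusted p under 0.05. BIRC5 is highest in each line at 1.13 to 1.37, followed in YTHDF2-ADAR and YTHDF3-ADAR cells by CKS1B at 0.88 and 0.97, and KIF11, CKAP2L and HMMR are at the left in each line.

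YTHDF1 RIPs were compared with the other RIPs in YTHDF1-ADAR cells, where the YTHDF1 libraries were not in the group that stood apart. They still gave 2.0 to 3.1% of counts to mitochondrially encoded mRNAs, against 0.56 to 1.06% in YTHDF2 and 0.70 to 1.19% in YTHDF3 RIPs. Olfactory receptor genes took 9.1 to 15.5 CPM there, against 6.2 to 18.5 and 6.8 to 9.1 CPM. The part of these values in the comparison was not tested. Against YTHDF2 RIPs, 9 members were higher and 12 lower (median -0.17; 20.3% of all genes higher and 18.8% lower, 39.1% together). The list was led by CENPF (1.17 ± 0.27), CKAP2L (1.079 ± 0.18) and CENPE (0.81 ± 0.27) on the higher side and by ANP32E (-1.58 ± 0.34), BIRC5 (-1.15 ± 0.15) and G2E3 (-1.04 ± 0.17) on the lower. Against YTHDF3 RIPs, 5 were higher and 23 lower (median -0.60; 22.4% and 18.7%, 41.1% together). CENPF (1.76 ± 0.28), CENPE (1.20 ± 0.27) and MKI67 (0.74 ± 0.23) were highest there and KIF11 (-1.57 ± 0.18), CDK1 (-1.38 ± 0.20) and HMMR (-1.36 ± 0.38) lowest. Against YTHDF2 RIPs the counts were 9 higher and 7 lower without YTHDF1 RIP 1, 8 and 22 without YTHDF1 RIP 3, 13 and 9 without YTHDF2 RIP 2, and 3 and 5 when fitted on these groups alone. The median there lay between -0.49 (without YTHDF1 RIP 3) and 0.06 (without YTHDF2 RIP 2), so its sign rested on single libraries. In the other lines, where the YTHDF1 libraries stood apart, most members were lower. Against YTHDF2 RIPs 5 were higher and 29 lower in YTHDF2-ADAR cells (median -0.59; 42.9% of all genes higher and 32.2% lower, 75.1% together). In YTHDF3-ADAR cells 5 were higher and 27 lower (median -0.65; 41.5% and 31.3%, 72.9% together). Against YTHDF3 RIPs 2 were higher and 34 lower in YTHDF2-ADAR cells (median -0.78; 42.4% and 30.3%, 72.6% together), and 4 and 35 in YTHDF3-ADAR cells (median -0.98; 42.5% and 29.8%, 72.2% together). Of protein-coding genes, 22.5% were higher and 51.1% lower than in YTHDF2 RIPs of YTHDF2-ADAR cells, and 21.1% and 50.6% in YTHDF3-ADAR cells. Against YTHDF3 RIPs these shares were 23.4% and 47% in YTHDF2-ADAR cells, and 23% and 47.4% in YTHDF3-ADAR cells. The part of the library differences in these counts was not tested, and no alternative was run for them. BIRC5 in YTHDF1 against YTHDF2 RIPs stood at -2.52 in YTHDF2-ADAR cells and -2.28 in YTHDF3-ADAR cells. CENPE stood at 1.17 and 1.78 in these lines.

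The enrichment of a message by the RIP of a protein, in the line that carried that protein's fusion, was tested against the mean of the other lines. For YTHDF1, 21 members were more enriched in YTHDF1-ADAR cells and 4 less (median 0.47; 26.9% of all genes more and 42.4% less, 69.3% together; median of all genes -0.45). The members' shares were 44.7% and 8.51%. Of protein-coding genes 41% were more and 26.2% less enriched (median 0.27), and of other mitosis genes 37.9% and 15.5% (median 0.26). AURKA changed most (1.51 ± 0.19, adjusted p = 1.05e-08). In YTHDF1-ADAR cells it held 75.0, 62.9 and 73.1 CPM in YTHDF1 RIPs, against 55.4, 72.4 and 70.2 in input. In YTHDF2-ADAR cells it held 25.4, 26.3 and 27.7 in YTHDF1 RIPs, against 65.9, 73.8 and 73.1 in input. In YTHDF3-ADAR cells it held 27.5, 27.0 and 20.3 in YTHDF1 RIPs, against 68.0, 63.2 and 70.1 in input. GTSE1, a microtubule protein that restrains p53 (1.51 ± 0.20), and CKAP2L (1.48 ± 0.22) followed, and G2E3 had the lowest value (-1.26 ± 0.21). Line and library type cannot be told apart in this comparison, since the 6 libraries that stand apart are the YTHDF1 RIPs of both other lines. Scaled on protein-coding genes the split was 9 more and 10 less, by total counts 14 and 9, and on the groups compared alone 28 and 1. It was 14 more and 11 less without YTHDF1 RIP 3 of YTHDF1-ADAR cells (median 0.15), 22 and 2 without its YTHDF1 RIP 1 (median 0.62), and 21 and 2 without its YTHDF1 RIP 2. For YTHDF2 and YTHDF3 no member passed by edgeR or by DESeq2. By edgeR 0 and 1 members had an unadjusted p under 0.05, and 0 genes of all tested passed (0 and 1 by DESeq2; 822 and 835 at an unadjusted p under 0.05 by edgeR).

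Between YTHDF1-ADAR and YTHDF2-ADAR inputs, 0 members were higher and 3 lower (13.3% of all genes higher and 4.3% lower, 17.6% together). These were BIRC5 (-0.54 ± 0.15), NCAPD2 (-0.44 ± 0.15) and KIF2C (-0.35 ± 0.12). Between YTHDF1-ADAR and YTHDF3-ADAR inputs 0 were higher and 3 lower (11.3% and 5.1%, 16.4% together). These were CKS1B (-1.09 ± 0.23, adjusted p = 0.00196), NEK2 (-0.69 ± 0.17) and KIF2C (-0.55 ± 0.13). Between YTHDF2-ADAR and YTHDF3-ADAR inputs none passed by edgeR or DESeq2 (1.27% and 2.15% of genes, 3.42% together; 3 members at an unadjusted p under 0.05 by edgeR). Fitted on the groups compared alone, 2 members were higher and 4 lower between these inputs, 0 passed between YTHDF1-ADAR and YTHDF2-ADAR inputs, and 7 were lower in YTHDF1-ADAR than in YTHDF3-ADAR inputs. In lysates of a growing culture, fewer cells in G2 or mitosis and less of a message per cell cannot be told apart. The members' median in input 1 of YTHDF1-ADAR cells lay at -0.33 relative to the mean of the 9 inputs, against -0.04 and -0.06 in inputs 2 and 3. Against YTHDF2-ADAR inputs, no lower call was left without input 1 of YTHDF1-ADAR cells or without input 2 of YTHDF2-ADAR cells, and 1 without input 1 of YTHDF2-ADAR cells. By total counts the splits were 1 higher and 1 lower against YTHDF2-ADAR and 1 and 3 against YTHDF3-ADAR inputs, and on protein-coding genes 1 and 2, and 1 and 3. In level per kilobase of summed exon, CKS2 (69.5 CPM per kb, mean of the 9 inputs), ANP32E (60.5), HMGB2 (59.1) and CDC20 (59.1) were the most abundant members, and CDC25C (6.59), CDCA3 (5.59), CKAP2L (4.72) and G2E3 (4.23) the least.

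Messages with longer exons had the higher RIP values. Spearman's rho between the summed exon length and the log2 change against input was taken across the 47 members, which share the same libraries. In the 3 lines it was 0.53, 0.64 and 0.65 for YTHDF1 RIPs. It was 0.61, 0.51 and 0.58 for YTHDF2 RIPs, and 0.63, 0.63 and 0.65 for YTHDF3 RIPs. Over 15966 protein-coding genes the values were lower, at 0.17, 0.20 and 0.19 for YTHDF1, 0.32, 0.27 and 0.31 for YTHDF2, and 0.48, 0.42 and 0.46 for YTHDF3. Over all 31849 genes tested they were 0.22, -0.31 and -0.31 for YTHDF1, 0.12, 0.13 and 0.18 for YTHDF2, and 0.30, 0.11 and 0.20 for YTHDF3. Of the 16 shortest members (616 to 3554 bases), 1 was higher and 9, 9 and 7 were lower in YTHDF3 RIPs of the 3 lines. Of the 16 longest (5464 to 12845 bases), 6, 4 and 7 were higher and 0 lower. Over all genes tested, 11.5%, 15.2% and 13.5% were higher and 20.1%, 16.9% and 16.1% lower in these RIPs. In YTHDF2 RIPs none of the shortest was higher and 11, 7 and 9 were lower, while 3, 1 and 1 of the longest were higher and 2, 2 and 1 lower. In YTHDF1 RIPs none of the shortest was higher and 12, 15 and 16 were lower, while 5, 3 and 4 of the longest were higher and 6, 7 and 7 lower. Shares over all genes for YTHDF1 and YTHDF2 RIPs are given with those comparisons above. Shares among other genes of like length were not computed, so these counts do not set the members apart from such genes. The contrast of YTHDF2 with YTHDF3 RIPs followed length less closely (-0.06, -0.33 and -0.34, against -0.28, -0.32 and -0.34 over protein-coding genes). Its leading members have summed exons of 3815 bases for BIRC5, 5322 for KIF11, 5464 for CKAP2L and 3932 for HMMR.

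**Figure D4:**
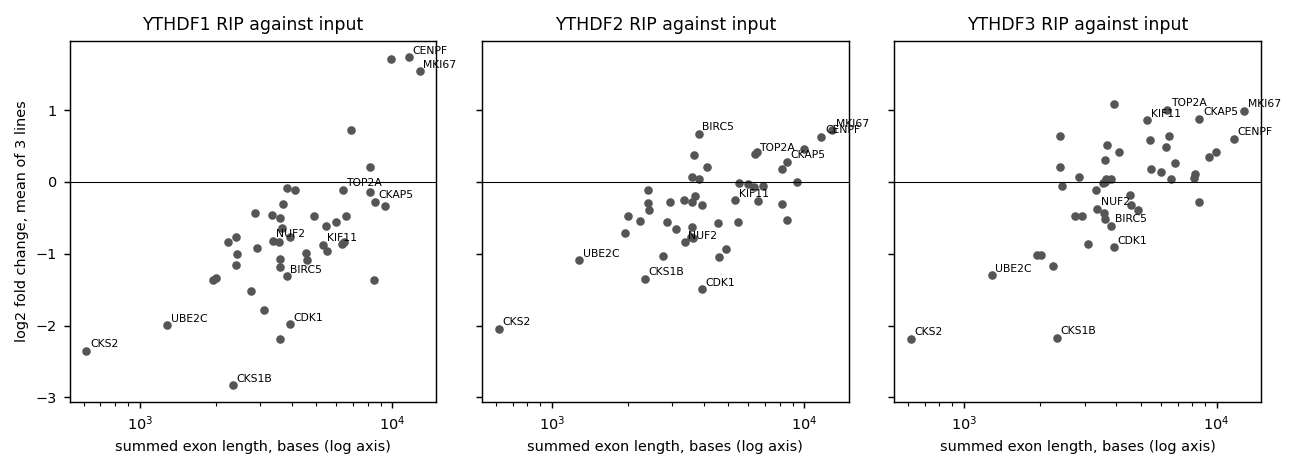
Mean log2 fold change over the 3 lines of YTHDF1, YTHDF2 and YTHDF3 RIPs against input (3 panels) for each of the 47 messages, by summed exon length on a log axis. CKS2 (616 bases) is at the lower left and MKI67 (12845 bases) at the upper right of each panel.

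Of 103 other mitosis genes, 21, 16 and 17 were higher and 35, 36 and 33 lower in YTHDF3 RIPs of the 3 lines, and 15, 15 and 10 higher and 37, 28 and 32 lower in YTHDF2 RIPs. The short messages PTTG1 (securin) and CENPW were lower in YTHDF3 RIPs, at -2.04, -1.90 and -1.99, and at -2.49, -1.62 and -2.18 in the 3 lines, while ANAPC1, a large subunit of the anaphase-promoting complex, was higher, at 1.03, 0.84 and 0.91. Of 63 S phase genes, 12, 14 and 17 were higher and 25, 22 and 21 lower in YTHDF3 RIPs.

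Editing was read from the authors' deposited tables, in which replicates are pooled, as the mean percent edited over the sites of a gene. The tables do not state the unit of their score. Read as a sum of per-site fractions, it returns the deposited log odds ratio of YTHDF1 RIP and input for 7237 of the 7237 genes above 0 in both, within 1e-06, in the authors' deposited table for YTHDF1-ADAR cells. There it did so for 7256 of 7263 genes in the YTHDF2 RIP and 7326 of 7339 in the YTHDF3 RIP. For YTHDF2-ADAR cells the matches were 1188 of 1188, 1752 of 1836 and 1756 of 1853 in the YTHDF1, YTHDF2 and YTHDF3 RIPs. For YTHDF3-ADAR cells they were 1538 of 1538, 2274 of 2348 and 2341 of 2426. The source of the mismatches was not tested. In the authors' deposited table for YTHDF1-ADAR cells, 34 of the 47 members were among 7829 listed genes, with 349 sites in all. The 13 members not listed were CCNB1, CDK1, CKS1B, CKS2, DLGAP5, HMMR, KIF23, KIF2C, NDC80, NUF2, NUSAP1, TTK and UBE2C. In the YTHDF1 RIP 26 of the 34 were edited more than in input (25 of the 30 above 0 in both). Their median was 2.25% in the YTHDF1 RIP, against 1.58% in input, in that authors' deposited table. There 6437 of 7807 genes were edited more (median 3.71% in the RIP, against 2.50% in input). In the YTHDF2 RIP 27 and in the YTHDF3 RIP 24 of the 34 were edited more, with medians of 2.01% and 1.89%. There 6059 of 7814 genes were edited more in the YTHDF2 RIP (median 3.40%, against 2.50% in input) and 5923 of 7817 in the YTHDF3 RIP (median 3.18%, against 2.50%). All 3 RIPs are set against the same pooled input. Since no library came from cells without a fusion, editing by a fusion and by the cells' own ADAR genes cannot be told apart.

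By the authors' deposited adjusted p, 2 of the 34 passed 0.05 in the YTHDF1 RIP (7.93% of listed genes did so with more editing and 0.192% with less). These were BIRC5, with 22 sites edited at 5.22% in the YTHDF1 RIP, against 2.56% in input (natural log odds ratio 0.74, adjusted p = 0.00213 in the authors' deposited table), and TMPO, with 10 sites at 2.48%, against 1.38% (0.60, adjusted p = 0.0146 in the same authors' deposited table). In the authors' deposited table none passed in the YTHDF2 RIP (1.61% of listed genes with more editing) or the YTHDF3 RIP (1.01%). MKI67 carried the most sites, 112, edited at 2.11% in the YTHDF1 RIP, 2.02% in the YTHDF2 RIP and 2.04% in the YTHDF3 RIP, against 1.63% in input. GTSE1 followed with 62 sites at 3.30%, 3.02% and 2.73% in these RIPs, against 1.96% in input, then CENPF with 22 sites at 2.76%, 3.01% and 3.23%, against 2.35%, and TACC3 with 13 at 3.71%, 3.15% and 2.98%, against 2.74%. NEK2 had the highest level of the members in each RIP and in input, from 1 site. It stood at 21.7% in the YTHDF1 RIP, 23.6% in the YTHDF2 RIP and 14.3% in the YTHDF3 RIP, against 16.0% in input. With 1 or 2 sites, AURKB (1.42% against 0.0693%), CDC20 (2.04% against 0.370%), CENPA (8.20% against 2.45%) and KIF20B (8.77% against 2.97%) had large odds ratios in the YTHDF1 RIP and did not pass. BIRC5 RNA itself was lower in that RIP than in input, by the counts given with its role group.

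In the other lines the authors' deposited tables listed few members, 9 of 2402 genes with 25 sites in YTHDF2-ADAR cells and 10 of 2944 with 29 sites in YTHDF3-ADAR cells, and none passed in any RIP. Of all listed genes, 2%, 0.0416% and 0.833% passed with more editing in the YTHDF1, YTHDF2 and YTHDF3 RIPs of YTHDF2-ADAR cells, and 2.11%, 0.0679% and 1.56% in those of YTHDF3-ADAR cells. In YTHDF2-ADAR cells, CDK1 had 4 sites at 8.63% in the YTHDF1 RIP, 33.1% in the YTHDF2 RIP and 28.9% in the YTHDF3 RIP, against 15% in input. The other 8 members listed there stayed under 2% in every arm. In YTHDF3-ADAR cells TMPO had 9 sites at 1.36%, 1.28% and 1.45% in the 3 RIPs, against 1.06% in input. Median levels of the members in the YTHDF1 RIP were 0.315% against 0.719% in input of YTHDF2-ADAR cells, and 0.178% against 1.02% in input of YTHDF3-ADAR cells. Over all listed genes of the authors' deposited tables these medians were 0.511% against 0.951% in input of YTHDF2-ADAR cells, and 0.531% against 1.12% in input of YTHDF3-ADAR cells. In YTHDF2-ADAR cells the members' medians were 0.470% in the YTHDF2 RIP (4 of 9 edited more) and 1.00% in the YTHDF3 RIP (8 of 9), where 1352 of 2306 listed genes were edited more (median 1.25%, against 0.988% in input). In YTHDF3-ADAR cells they were 0.611% in the YTHDF2 RIP and 0.902% in the YTHDF3 RIP, with 3 of 10 edited more in each, against 1686 of 2864 listed genes in the YTHDF3 RIP. The number of reads behind each level is not in the deposited tables, so no interval is given.

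**Figure D5:**
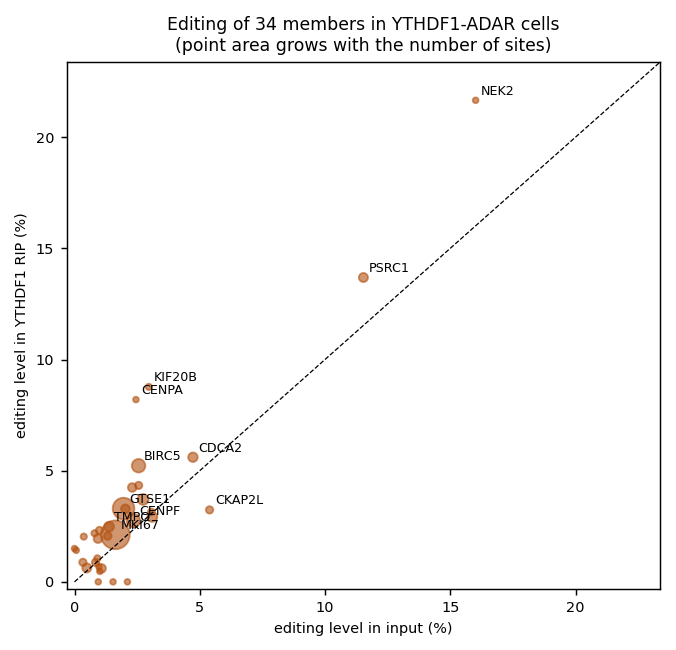
Editing level (%) of the 34 listed messages in the YTHDF1 RIP (vertical) and input (horizontal) of YTHDF1-ADAR cells, from the authors' deposited table, with point area by number of sites and a dashed line of equal levels. Most points, among them BIRC5, TMPO, GTSE1 and MKI67, lie above the line.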

How the data were processed

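RNA from 36 libraries (12 groups of 3) was sequenced. Reads were aligned with STAR 2.7.7 to GRCh38 and counted with featureCounts 2.0.1, per the submitters' processing notes. The deposited counts table names Ensembl 102 and carries multi-mapping and multi-overlapping reads with no strand option, per the file headers, so reads of pseudogene copies and antisense or overlapping neighbours cannot be told apart. The gene Length column, unit "other", is the summed exon length deposited by the authors. The authors' deposited DESeq2 table (baseMean as a signal, log2 fold changes and p-values, with no stated reference group) gave gene symbols only. The deposited editing tables hold, per gene, an editing score summed over sites, a count of sites, an odds ratio as its natural log, and a p-value. The editing level is 100 times score over sites, read as a sum of fractions, and its read depth is not in these tables.

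Counts were fitted with edgeR 4.0.16 (R 4.3.3; TMM scaling, filterByExpr, quasi-likelihood test) in one model of 12 groups over all 36 libraries, with Benjamini-Hochberg adjustment over 31849 genes. The 28826 genes under the filter and 1 row for rat Apobec1 were left out. The scripts were tested on simulated data. Symbols came from the authors' table for 40818 genes and from the reference for 1276, while 18581 had none. Libraries held 12.5 to 37.5 M counts. Whether replicates were separate cultures is not stated, and p-values cover only the spread among the libraries, which may be technical. Same-numbered libraries deviated together (every correlation over 0.1) in 3 of 18 pairs of groups within a line, namely YTHDF2 and YTHDF3 RIPs of YTHDF1-ADAR cells (lowest 0.174) and input with YTHDF1 RIPs (0.208) or YTHDF2 RIPs (0.111) of YTHDF3-ADAR cells. The labels give no shared source.

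Named members were the highest and lowest of each role group by mean log2 change over the 6 comparisons of YTHDF2 and YTHDF3 RIPs with input, CDK1, CCNB1, AURKA, AURKB, TOP2A and MKI67, the paralog pairs, the 3 highest and 3 lowest members of each comparison, and the members with the most edited sites or largest odds ratios. Others that are named were chosen after their values were seen. The members, the gene lists and the tests were chosen with earlier results of these data known. Alternatives were total-count scaling, TMM over protein-coding genes, no filter, DESeq2 1.42.0, a replicate block, fits on the groups compared alone or without the YTHDF1 RIPs of YTHDF2-ADAR and YTHDF3-ADAR cells, and each library left out with the tested genes and scaling kept. Where groups were left out, the filter and scaling were computed anew.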

Additional observations from a re-analysis of the deposited data

Results flagged for a closer look

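The enrichment of 25 messages in YTHDF1 RIPs over input differed between YTHDF1-ADAR cells and the mean of the other lines, by a test of the difference itself (edgeR's quasi-likelihood test, adjusted p under 0.05). The log2 differences were 1.51 for AURKA, 1.51 for GTSE1, 1.48 for CKAP2L, 1.31 for BIRC5, 1.24 for TPX2, 1.06 for CENPF and 1.01 for CDCA2. They were 0.94 for NCAPD2, 0.94 for TMPO, 0.91 for NEK2, 0.90 for CKAP2, 0.78 for CCNB1, 0.77 for CKS1B, 0.77 for TACC3, 0.76 for TOP2A and 0.75 for CDC20. They were 0.68 for CDCA8, 0.63 for CENPA, 0.63 for HJURP, 0.59 for PSRC1 and 0.49 for CKAP5. The 4 negative ones were -0.48 for AURKB, -0.59 for CDCA3, -0.70 for CDK1 and -1.26 for G2E3. Of the 25, 10 kept their call under every alternative. Of all genes tested 69.3% passed, and of protein-coding genes 41% were more and 26.2% less enriched. The YTHDF1 RIPs of the other lines are the 6 libraries that stood apart in depth and RNA classes, so line and library type cannot be told apart. The gap test for an outlying library needs 4 or more libraries in a group and was not run.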

How the results depend on the processing

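Counts of members called depended on the processing as follows, and the cause was not tested. With total-count scaling, 22 members passed between YTHDF2 and YTHDF3 RIPs of YTHDF1-ADAR cells. Without the filter on low counts, 5 passed between YTHDF1-ADAR and YTHDF2-ADAR inputs and 7 between YTHDF1-ADAR and YTHDF3-ADAR inputs, and without the YTHDF1 RIPs of YTHDF2-ADAR and YTHDF3-ADAR cells 7 and 6. DESeq2 gave 6 between YTHDF1-ADAR and YTHDF3-ADAR inputs. Fits on the groups compared alone gave 11, 29 and 29 for YTHDF2 RIPs against input in the 3 lines, 8 for YTHDF1 against YTHDF2 RIPs, 9 and 20 for YTHDF2 against YTHDF3 RIPs of YTHDF1-ADAR and YTHDF3-ADAR cells, and 0, 7 and 6 for the input pairs. With 1 library left out, YTHDF2 RIPs against input gave 19 to 25, 11 to 15 and 9 to 13 in the 3 lines, YTHDF2 against YTHDF3 RIPs 12 to 22, 11 to 17 and 10 to 12, YTHDF1 against YTHDF2 RIPs 16 to 30, and YTHDF1-ADAR inputs 0 to 4 and 2 to 4 against the others. Values changed sign in YTHDF1 RIPs against input for HJURP (by total counts 0.21 for YTHDF2-ADAR and 0.0505 for YTHDF3-ADAR cells, on protein-coding genes 0.12 and 0.15), ANLN (0.0202 in YTHDF2-ADAR cells by total counts), and CDCA3 (0.0362) and CDC25C (0.0262) in YTHDF3-ADAR cells on protein-coding genes. With 1 library left out 6938 member results stayed on the same side of the threshold, 89 newly passed, 305 no longer passed and no called value changed sign. With a replicate block 917 member results stayed on the same side of the threshold, 5 newly passed and 18 no longer passed. Where the replicate numbers deviated together, the block changed no calls beyond the 5 given above. Same-numbered libraries correlated over 0.1 in 24 of 54 pairs, against 35 of 108 pairs of different numbers. Under every alternative 23 of 35, 24 of 39 and 26 of 42 calls held for YTHDF1 RIPs against input, 11 of 22, 10 of 16 and 8 of 17 for YTHDF2, 16 of 23, 14 of 20 and 15 of 20 for YTHDF3, and 9 of 14, 9 of 18 and 8 of 13 for YTHDF2 against YTHDF3 RIPs.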
